A study of Mus musculus with 4 samples.

Results

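In mouse bone marrow cells that the labels call LIC, YTHDC1 was recovered with RNA from deep inside introns, and most of those intron sites carried no peak of the other m6A readers assayed. The regions described here are the YTHDC1 peaks whose summit lay in an intron of a protein-coding gene, in no annotated exon, more than 2000 nt from the gene's 5' end, and whose interval overlapped no peak of IGF2BP2 or YTHDF2. There were 2381 of them among 9963 YTHDC1 peaks (23.9%, 95% interval 23.1 to 24.7) and among 19866 peaks in the 3 lists together. They were chosen by the authors' own peak calls in all 3 lists, by summit position and by absence of overlap, so their number, their intron position and their freedom from other readers are descriptions and not tested findings. They are called YTHDC1-only deep intron peaks below.

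The series, from a study of acute myeloid leukaemia stem cells, holds 4 libraries, all of primary cells given as lin-ckit+ and bone marrow. RNA was immunoprecipitated with an antibody (Proteintech) against IGF2BP2, YTHDF2 or YTHDC1 in 1 library each, and the fourth library is the input, with no antibody. Cells were grown with IL3, IL6 and stem cell factor, and RNA and protein were joined by 3 UV exposures of 120 mJ per cm2 at 254 nm. All 4 libraries share this treatment; the labels used here give neither the leukaemia driver nor the number of animals, and no normal cells were analysed. With 1 library per protein, differences between readers could not be checked against replicates. Intervals are exact binomial for shares and exact Poisson for densities, and they cover counting error only; peaks of 1 gene share their transcript, so the true error is larger. Sequencing depth is unknown.

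N6-methyladenosine, or m6A, is a methyl mark placed on RNA while it is being transcribed. YTHDC1 is its nuclear reader, known for roles in splicing, export and the fate of chromatin-bound RNA. YTHDF2 is a cytoplasmic reader that promotes decay of marked messages, and IGF2BP2 stabilises them. Introns are removed in the nucleus. The writer complex prefers a short context that contains GGAC, with the methylated A inside it.

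Of the progenitor and myeloid markers examined, the receptor gene Kit had 1 YTHDC1 peak and no peak of the other readers. That peak was a YTHDC1-only deep intron peak. The progenitor factor Myb had 10 IGF2BP2, 4 YTHDC1 and 6 YTHDF2 peaks, Meis1 had 1, 4 and 0, and Gata2 had 0, 2 and 0. In the same order, the myeloid genes Itgam had 2, 2 and 0, and Prtn3 and Irf8 each had 0, 2 and 0. Ctsg had 0, 1 and 1, and Csf1r had 1, 0 and 1. Cd34, Flt3, Mpo, Elane and Ly6c2 had no peak in any list. A missing peak can reflect low depth as well as a silent gene, so it does not show that a gene was not expressed.

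Sequence was at hand only where a peak crossed a window around a RefSeq transcript start, which held for 9 of the 2381 peaks. The runs below come from RefSeq promoter windows on GRCm38.p6 and are written 5' to 3' on the strand of the host gene, since the peak lists carry no strand. Capitals mark GGAC. Bases from the transcript start onward were left out. They are shown because they differ in make-up: a tandem array, a simple repeat, a GC-rich run and an AT-rich run.
Ankfy1, chr11:72765233-72765482, plus strand: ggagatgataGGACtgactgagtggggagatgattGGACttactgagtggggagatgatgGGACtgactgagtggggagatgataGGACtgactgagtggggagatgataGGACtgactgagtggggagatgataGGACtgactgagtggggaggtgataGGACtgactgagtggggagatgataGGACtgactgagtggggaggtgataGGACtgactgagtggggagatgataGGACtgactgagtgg
Arpp21, chr9:112087090-112087189, minus strand: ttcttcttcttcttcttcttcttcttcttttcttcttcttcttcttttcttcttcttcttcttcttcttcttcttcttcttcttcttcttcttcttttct
Dcun1d1, chr3:35932335-35932505, minus strand: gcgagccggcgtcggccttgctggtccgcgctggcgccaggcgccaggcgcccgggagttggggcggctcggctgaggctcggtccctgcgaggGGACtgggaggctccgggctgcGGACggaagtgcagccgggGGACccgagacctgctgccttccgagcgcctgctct
Ncor1, chr11:62438516-62438611, minus strand: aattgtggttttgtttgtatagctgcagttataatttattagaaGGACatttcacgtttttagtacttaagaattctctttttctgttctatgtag

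The Ankfy1 peak lay in the last intron, number 24, of a gene for an endosomal protein. It was 1071 bp wide with a fold of 16.1, and its summit lay 88 bases upstream of the printed run. That run of 250 bases held GGAC 10 times, and all 9 spacings between neighbouring copies were 25 bases, the period of a tandem array. Reads from such an array can map to several of its copies, and the effect on the peak was not tested. The Arpp21 peak was 100 bp wide, had a fold of 3.93 from a pileup of 3, held TTC 31 times and held no GGAC. The Dcun1d1 run was 76.6% G or C with GGAC 3 times, and its summit lay 81 bases from the start of another transcript of the same gene, with a fold of 6.45. The Ncor1 run, in the first intron of a corepressor gene, held GGAC once. Its peak had a fold of 3.93 from a pileup of 3. The intervals of the Dcun1d1 and Ncor1 peaks touched an annotated exon. Over whole windows of 300 bases, on the strand of the window's own gene, 8 of the 9 windows crossed by a peak held GGAC (88.9%, 51.8 to 99.7), against 65.6% of all 32851 windows in the table. The interval includes the share of all windows, and a match of letters is no methylation site.

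The miRNA genes next to these peaks gave a second set of sequences. Of the 2381 peaks, 7 lay within 500 bp of an annotated hairpin and 1 overlapped its hairpin, miR-6991 in 2700081O15Rik. That peak was weak, with a fold of 4.29 from a pileup of 4 and a −log10 q of 2.73. The same count for shared peaks or for bare intron sequence is not given here. Whether these peaks lie near hairpins more often than other sequence was therefore not tested. In Mcm7, a replication helicase gene whose intron 13 carries the cluster of miR-106b, miR-93 and miR-25, the peak ended 56 bp from the hairpin of miR-106b. It had a fold of 5.82 from a pileup of 5. The 5p arms of miR-106b, 67 bp from the peak, and of miR-93, 278 bp from it, are printed with the seed, bases 2 to 8, in capitals, because they share it; the 3p arm of miR-106b, at 107 bp, has another seed.
miR-106b-5p: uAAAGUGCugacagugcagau
miR-93-5p: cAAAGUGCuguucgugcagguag

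The place of summits separated the 3 lists. Deep introns held 3087 of 9963 YTHDC1 summits, 1630 of 7069 IGF2BP2 summits (23.1%) and 542 of 2834 YTHDF2 summits (19.1%). Of the deep intron YTHDC1 peaks, 77.1% (75.6 to 78.6) overlapped no other reader and 706 were shared. The corresponding share was 58.0% (55.6 to 60.4) for IGF2BP2 and 26.6% (22.9 to 30.5) for YTHDF2. Within the YTHDC1 list the share without another reader was 60.5% (59.1 to 61.8) for exon summits. It was 91.1% (88.1 to 93.6) for the 450 intron summits within 2000 nt of the gene start. For summits outside protein-coding genes it was 72.6% (70.3 to 74.9), not far below that of deep introns. The lists differ in length by these totals, and the part of list length in these shares was not tested.

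**Figure D1:**
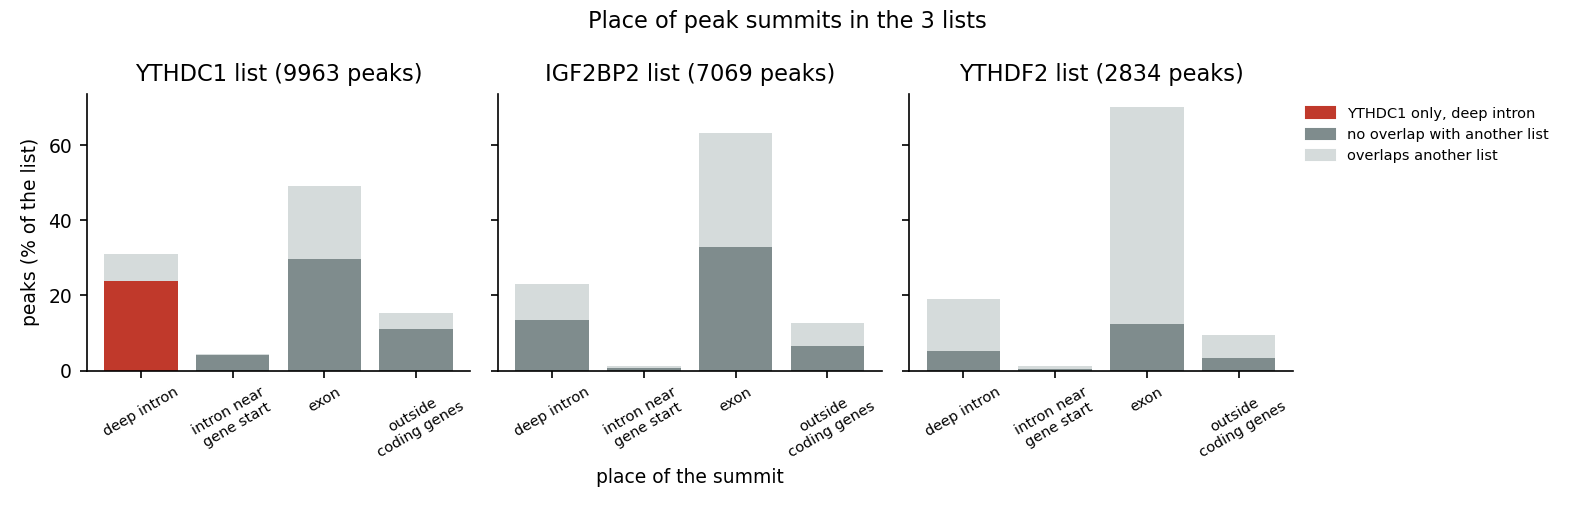
Percent of each peak list (vertical axis) by the place of the summit (horizontal axis), for the YTHDC1, IGF2BP2 and YTHDF2 lists. The red bar is the 2381 YTHDC1-only deep intron peaks, dark grey marks other peaks that overlap no other list and light grey marks shared peaks; the red bar stands at 23.9% of the YTHDC1 list, and 706 shared peaks lie above it.

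Just inside the limit of 2000 nt lay peaks in Sdr42e1 (2008 nt, fold 10.7), E2f3 (2016 nt, fold 4.84) and Trip12 (2038 nt, fold 5.54). Just outside lay peaks in Fcnb (1993 nt, fold 3.93), Gnai2 (1974 nt, fold 8.05) and Uap1l1 (1941 nt, fold 3.93). The nearest approach to another reader's peak without overlap was 26 bp in Abca7, 29 bp in Rcc1l and 45 bp in Stx18. The smallest overlaps that put a peak among the shared ones were 2 bp in Itga9, 2 bp in Dync1h1 and 3 bp in Pfkfb4. Most members were far from these edges: the median gap to the nearest peak of another reader was 42120 bp, and 127 of 2381 (5.33%) had such a peak within 1000 bp.

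The authors' fold is the pileup of fragments at the summit over a local background. For the YTHDC1-only deep intron peaks it ran from 2.80 to 45.8 with a median of 5.63, and 303 of 2381 (12.7%) reached 10. The 706 shared deep intron peaks had a median of 8.44 and a maximum of 111. The median pileup was 5 against 9, the median width 113 against 154 bp, and the median −log10 q 6.96 against 12.3. A pileup of 3 or less stood behind 30.4% (28.5 to 32.3) of the YTHDC1-only peaks and 14.4% (11.9 to 17.3) of the shared ones. Having no overlap is part of the definition, so the difference in strength is a description. YTHDC1-only peaks with exon summits had a median fold of 6.01, those in introns near the gene start 6.17 and the 1104 outside protein-coding genes 5.15.

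**Figure D2:**
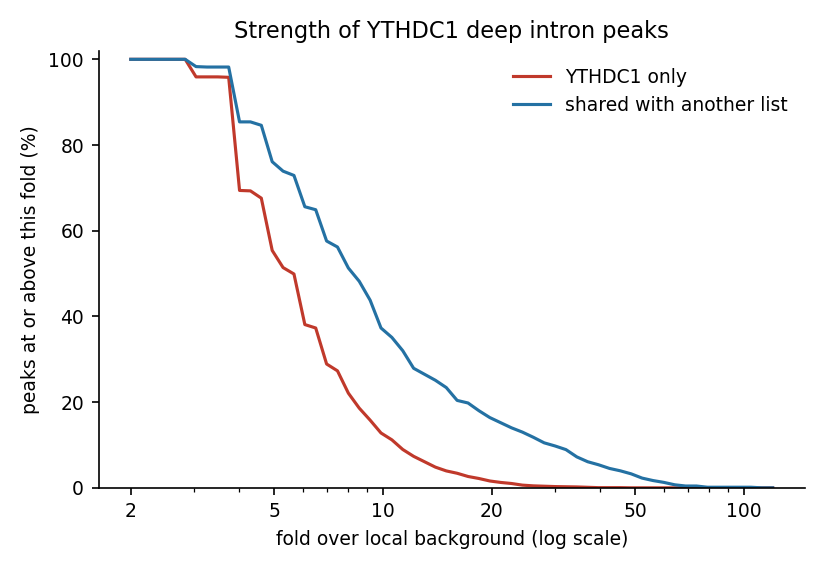
Percent of deep intron YTHDC1 peaks (vertical axis) at or above a given fold over local background (horizontal axis, log scale), for YTHDC1-only peaks (red) and peaks shared with another reader (blue). The red curve lies below the blue one: 12.7% of YTHDC1-only peaks reach a fold of 10, and the medians are 5.63 and 8.44.

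The highest fold was in Ldlrad4, a regulator of TGF-beta signalling, at 45.8 from a pileup of 75. Pid1 followed with 38.4, its summit 11327 nt from the nearest exon of the gene. In Mbd5, of the methyl-CpG-binding family, the fold was 37.8, and the summit lay 202540 nt from the gene's 5' end, outside the main transcript, which here is the one with the longest coding sequence. Dnah8, an axonemal dynein gene, had 36.9 in intron 14 of 92, inside the body of an annotated non-coding gene as well. Commd10 had 36.7 from a pileup of 90. In Prkcb, encoding a protein kinase C, the fold was 33.9 in intron 2 of 16 at chr7:122405603-122405809, where the interval touched the exon of another annotated gene model. These 6 peaks were 185 to 394 bp wide. The Dnah8 summit lay 244 nt from an exon of its gene and the other 5 summits at least 5596 nt.

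The next 9 genes by fold were Mapkapk2 (30.8), Slc38a8 (28.6), Dock10 (26.8), Lrrc8c (26.3), Ipcef1 (24.8), Sult2b1 (24.7), Irak2 (24.6), Dnaja3 (24.5) and Fosl2 (24.3). The Ipcef1 peak lay in 2 overlapping protein-coding genes and the Dnaja3 peak in 3, so their host is uncertain. Irak2 is a kinase of interleukin and Toll-like receptor signalling, and Mapkapk2 is a stress kinase. The Mapkapk2 peak lay 95 bp from a peak of another reader, the Fosl2 peak 350 bp and the Dnaja3 peak 463 bp. Fosl2, an AP-1 subunit, had the largest pileup of all members, 119, on a computed background of 3.95. The smallest background in the list was 0.0189, and 31.5% of YTHDC1-only deep intron peaks (29.7 to 33.5) stood on that floor, where the fold is set almost by the pileup alone. Whether these intervals lie in repeats, or draw reads that fit elsewhere in the genome, was not analysed here.

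Inside introns, the YTHDC1-only peaks lay farther from exons than shared YTHDC1 peaks and peaks of IGF2BP2 alone. Their median distance to the nearest exon of the gene was 2422 nt, against 938 nt for shared YTHDC1 peaks and 31.5 nt for peaks of IGF2BP2 alone. Within 100 nt of an exon lay 12.1% (10.9 to 13.5) of them, 37.4% (33.8 to 41.1) of shared peaks and 64.9% (61.8 to 67.9) of IGF2BP2-only peaks. These intervals do not overlap, with 1 library behind each list. Having no overlap with the other lists is part of the definition, so the difference in distance to exons is a description. Bare sequence was farther still. For a grid at every 5000th base of deep introns in the same host genes the median was 7607 nt. Of its positions, 2.37% lay within 100 nt of an exon. The grid of all deep introns had a median of 4261 nt and 3.65% within 100 nt. For the YTHDC1-only peaks both sides counted about alike. Near the upstream exon lay 7.43% (6.41 to 8.56) and near the downstream exon 6.72% (5.75 to 7.80). At the far end, 24.1% (22.4 to 25.9) of YTHDC1-only peaks lay over 10000 nt from any exon, against 16.4% of shared peaks. The share was 44.1% for the grid in the same genes and 33.1% for the grid of all deep introns. The peak interval touched an annotated exon in 10.8% (9.62 to 12.2) of YTHDC1-only peaks and 38.1% (34.5 to 41.8) of shared peaks. The part of exonic reads in such summits was not tested.

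**Figure D3:**
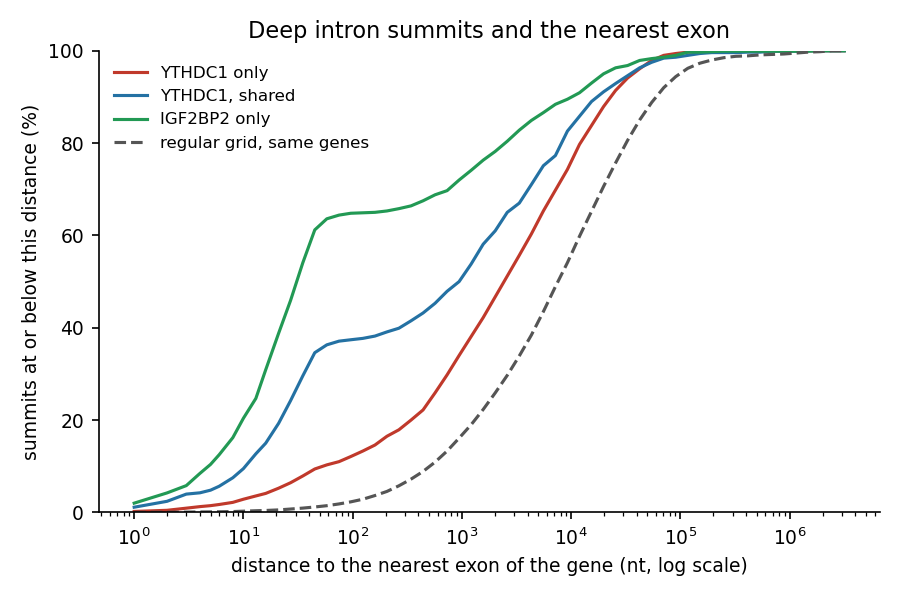
Percent of deep intron summits (vertical axis) at or below a given distance to the nearest exon of the host gene (horizontal axis, nt, log scale). Red is YTHDC1 only, blue is YTHDC1 shared with another reader, green is IGF2BP2 only, and the dashed line is a regular grid over deep introns of genes with a YTHDC1-only peak; at 100 nt the curves stand at 12.1%, 37.4%, 64.9% and 2.37%.

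The first intron held 629 of 2381 YTHDC1-only deep intron peaks (26.4%, 24.7 to 28.2). The share was 16.4% (13.8 to 19.4) for shared YTHDC1 peaks, 10.7% (8.78 to 12.8) for IGF2BP2-only peaks and 21.3% (20.9 to 21.7) for the grid in the same genes. The last intron held 6.64%, introns between first and last held 61.0%, and 5.92% lay in introns of other transcripts only. An annotated start of another transcript of the gene lay within 500 nt of the summit in 6.17% (5.24 to 7.22), against 1.43% (1.32 to 1.54) of the grid in the same genes and 8.36% (6.42 to 10.6) of shared peaks. The introns that held them had a median length of 14378 nt, against 4944 nt for shared peaks, 39678 nt for the grid in the same genes and 22002 nt for the grid of all deep introns. Within them, the median relative position was 0.477, near the middle.

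The 2381 peaks lay in 1564 genes, which is 8.22% of the 19032 protein-coding genes with deep intron sequence. Among the 2154 genes with at least 100000 nt of deep intron, 26.5% had a peak. Most host genes, 1160, had 1 peak, 243 had 2, and 161 had 3 or more and carried 735 peaks between them. Over all 907 Mb of deep intron the density was 2.63 peaks per Mb (2.52 to 2.73), against 0.779 (0.722 to 0.838) for shared YTHDC1 peaks and 1.04 (0.978 to 1.11) for IGF2BP2-only peaks. The share of genes with a peak was higher in each longer class of genes, and the density was lower. In genes with up to 10000 nt of deep intron 1.85% had a peak at 5.19 per Mb (4.40 to 6.09), and in genes over 300000 nt 30.3% had a peak at 1.20 per Mb (1.08 to 1.33). Peaks were mostly solitary: the median gap to the next YTHDC1-only deep intron peak was 66954 bp, and 6.05% had another within 1000 bp.

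Rnf220, which encodes a ubiquitin ligase, carried the most YTHDC1-only deep intron peaks, 27, or 126 per Mb (82.9 to 183). Intron 2 of 14, 181910 nt long, held 22 of them, and the rest lay in introns 3, 8 and 12. Their folds ran from 2.94 to 23.2 with a median of 6.85, and their pileups from 2 to 31. The strongest, at chr4:117324406-117324576 with a fold of 23.2 from a pileup of 23, stood on a background of 0.0345. The YTHDC1-only peaks were thus strewn over the gene rather than heaped at a single site. The strongest deep intron peak of YTHDC1 in the gene was a shared one in intron 2, with a fold of 52.9 and a pileup of 200. The gene had 34 YTHDC1 peaks in all, of which 3 were shared deep intron peaks, beside 7 of IGF2BP2 and 1 of YTHDF2.

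After Rnf220 came Lrmda with 20 peaks, 16 of them in its intron 2 of 550520 nt, and Arid1b with 18. Arid1b encodes a subunit of the BAF chromatin remodeller, and its peaks fell in 6 introns, most in intron 4 (6 peaks), intron 2 (5) and intron 1 (4), with folds of 2.94 to 11.2. Fam107b had 13 peaks, all in intron 2 of 4, with folds of 2.93 to 17.7. Foxp1, a forkhead factor of lymphocyte development, also had 13, of which 10 lay in introns outside its main transcript. The Foxp1 peaks with folds of 14.8 and 10.6 had 2 possible protein-coding hosts, so their host is uncertain. Density per Mb differed among these genes: 19.5 (11.9 to 30.1) for Lrmda, 53.1 (31.5 to 84.0) for Arid1b, 64.0 (34.1 to 109) for Fam107b and 22.5 (12.0 to 38.5) for Foxp1. All exceeded the density of 2.63 over all deep introns, which follows in part from choosing the genes with the most peaks.

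Etv6, an ETS repressor that is rearranged in human leukaemia, had 15 peaks, 9 in its first intron of 101146 nt and 5 in the second. Its folds ran from 3.90 to 10.8, and the summit with the highest fold lay 94120 nt into the gene. Runx1, the core factor of blood stem cell formation, had 9 peaks and no shared deep intron peak. In Runx1, 1 peak stood out with a fold of 18.03 from a pileup of 20, in intron 2 at chr16:92702671-92702879, while the other 8 had folds of 2.93 to 5.89. With 8 peaks each followed Baz2b, Cmip, Col19a1, Elmo1, Jak1, Sipa1l1 and Tiam1. Jak1, the kinase of cytokine receptors, had the highest density of these, 77.2 per Mb (33.3 to 152), with 6 of 8 peaks in its first intron. Baz2b and Col19a1 carried many peaks of IGF2BP2 too, 21 and 20, so a host of many YTHDC1-only intron peaks was not always a gene of YTHDC1 alone.

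**Figure D4:**
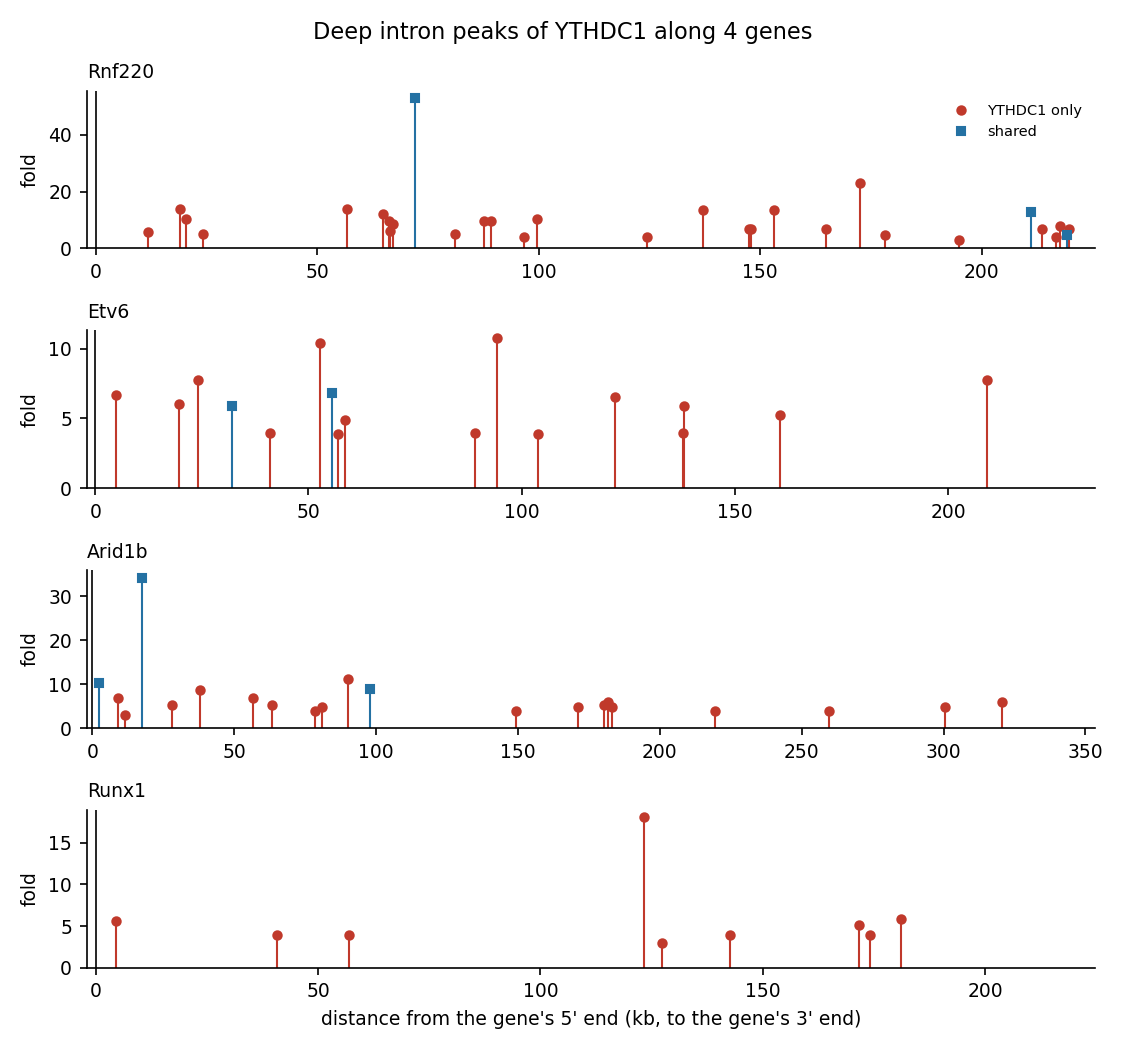
Fold over local background (vertical axis) of deep intron YTHDC1 peaks against distance from the gene's 5' end (horizontal axis, kb, up to the 3' end) in Rnf220, Etv6, Arid1b and Runx1. Red circles are YTHDC1-only peaks (27, 15, 18 and 9) and blue squares are peaks shared with another reader (3, 2, 3 and 0); the peaks spread over much of each gene.

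Transcription factors of stem cells and leukaemia formed the list with the most peaks. Of 42 listed factors with deep intron sequence, 23 (54.8%) had a YTHDC1-only deep intron peak, beside 8.22% of all genes and 26.5% of long ones. They held 83 peaks, or 15.7 per Mb (12.5 to 19.5), while shared YTHDC1 peaks stood at 1.71 per Mb (0.780 to 3.24) and IGF2BP2-only peaks at 1.14 (0.417 to 2.48) in the same introns. The list took 3.49% (2.79 to 4.30) of all YTHDC1-only deep intron peaks, 1.27% (0.585 to 2.41) of shared ones and 0.634% (0.233 to 1.38) of IGF2BP2-only ones. The median fold in the list was 5.89, against 5.63 over all members. The list was put together with earlier results of these data known, so its direction is not independent evidence.

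The highest folds in that list were in Ikzf2 (21.4), Spi1 (19.8), Mecom (19.4) and Runx1 (18.03). Ikzf2 encodes the Ikaros family factor Helios, and its top peak at chr1:69655230-69655390 had a pileup of 31. Spi1 encodes PU.1, the master factor of myeloid fate, and its 4 peaks lay in 0.0288 Mb of deep intron. Mecom, a stem cell factor that drives leukaemia when misexpressed, had 5 peaks, all in its first intron, with folds from 3.93 to 19.4. Meis1, the cofactor of Hoxa9 in leukaemia stem cells, was chosen after its values were seen: it had 4 peaks with folds of 6.69, 9.06, 9.64 and 12.9. In Meis1 they lay in introns 6, 8 and 9.

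Chromatin regulators gave 18 of 42 genes (42.9%, beside the same 8.22% and 26.5%) and 50 peaks, 9.90 per Mb (7.35 to 13.1). Shared peaks in these genes stood at 3.96 per Mb (2.42 to 6.12) and IGF2BP2-only peaks at 4.95 (3.20 to 7.31). Among the highest folds were those in Jmjd1c (14.3), a demethylase family member, Arid1b (11.2) and Aff1 (10.8), a part of the super elongation complex. Arid1b supplied 18 of the 50 peaks, and the density was 6.79 per Mb without it. Signalling kinases and phosphatases gave 22 of 38 genes (57.9%, beside 8.22% of all genes and 26.5% of long ones; 14 genes with −log10 q held to 5 or more) and 52 peaks, 8.79 per Mb (6.56 to 11.5), led by Prkcb (33.9), Map3k5 (16.3), Cdk6 (14.7) and Inpp5d (13.2). Inpp5d encodes the lipid phosphatase SHIP1, and Cdk6 is a cell cycle kinase on which many leukaemias depend.

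Cytokine receptors and surface molecules gave 10 of 35 genes (28.6%, beside 8.22% of all genes) with 1 peak each, 8.74 per Mb (4.19 to 16.1). Of all genes with 30000 to 100000 nt of deep intron 12.7% had a peak, and of those with 10000 to 30000 nt 6.05%. The receptor and surface list was led by the integrin genes Itga4 (8.59) and Itgb2 (7.68), with Notch2 (7.85) and Cd47 (6.87). Myeloid granule and differentiation genes gave 4 of 20 genes (20.0%, beside 8.22% of all genes), again with 1 peak each. Among them were the granule protease gene Prtn3 (7.52), the factor gene Irf8 (6.87) and the integrin gene Itgam (4.91). The deep introns of this myeloid list add up to 0.230 Mb, so the density of 17.4 per Mb has an interval of 4.73 to 44.4.

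Among regulators of m6A itself, 1 of 20 genes (5.00%, beside 8.22% of all genes) had such peaks: Fto, an m6A eraser, with 4 peaks and folds of 3.93 to 6.87. Translation and ribosome genes gave 5 of 23 (21.7%, beside the same 8.22%), with 10 peaks at 17.8 per Mb (8.52 to 32.7). The density there was 12.4 (5.00 to 25.6) for shared YTHDC1 peaks and the same value for IGF2BP2-only peaks. The 4 with the highest folds were Eef1a1 (9.03), Eif4g3 (7.24), Larp1 (5.72) and Larp4b (3.93). Eef1a1 has many processed copies in the genome, so its reads are uncertain, although its 2 peaks had intron summits. In this list the intervals of the 3 kinds of peak overlapped widely.

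The lists for other cell types stood as follows. No lymphoid marker of 20 had a YTHDC1-only deep intron peak; over their 0.828 Mb a count of 0 allows up to 3.62 per Mb, a limit above the density of all deep introns. Erythroid and megakaryocyte markers gave 2 of 16 (12.5%, beside 8.22% of all genes), Itga2b (top fold 8.32) with 2 peaks and Sptb (3.93) with 1. Among 16 stromal and endothelial markers 1 (6.25%, beside the same 8.22%) had peaks. It was Pecam1, an adhesion molecule that blood cells carry too, with 6 peaks and folds of 5.54 to 12.1. Long genes of neurons offered far more room, 44.5 Mb, and held 21 peaks in 15 of 40 genes, or 0.471 per Mb (0.292 to 0.721). Among the highest folds there were those in Nrg1 (8.83), Dpp10 (7.37) and Dpp6 (6.77). That density lies below the 2.63 per Mb of all deep introns and the 1.20 per Mb (1.08 to 1.33) of genes with over 300000 nt of deep intron, with intervals that do not overlap. The share of these genes with a peak, 37.5%, lies above the 26.5% of genes with at least 100000 nt and the 30.3% of those over 300000 nt, and with −log10 q held to 5 or more 9 of these genes had a peak. Expression of the host genes is not in the files used, so its part in these densities, and in the exon peaks of host genes given next, was not tested.

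**Figure D5:**
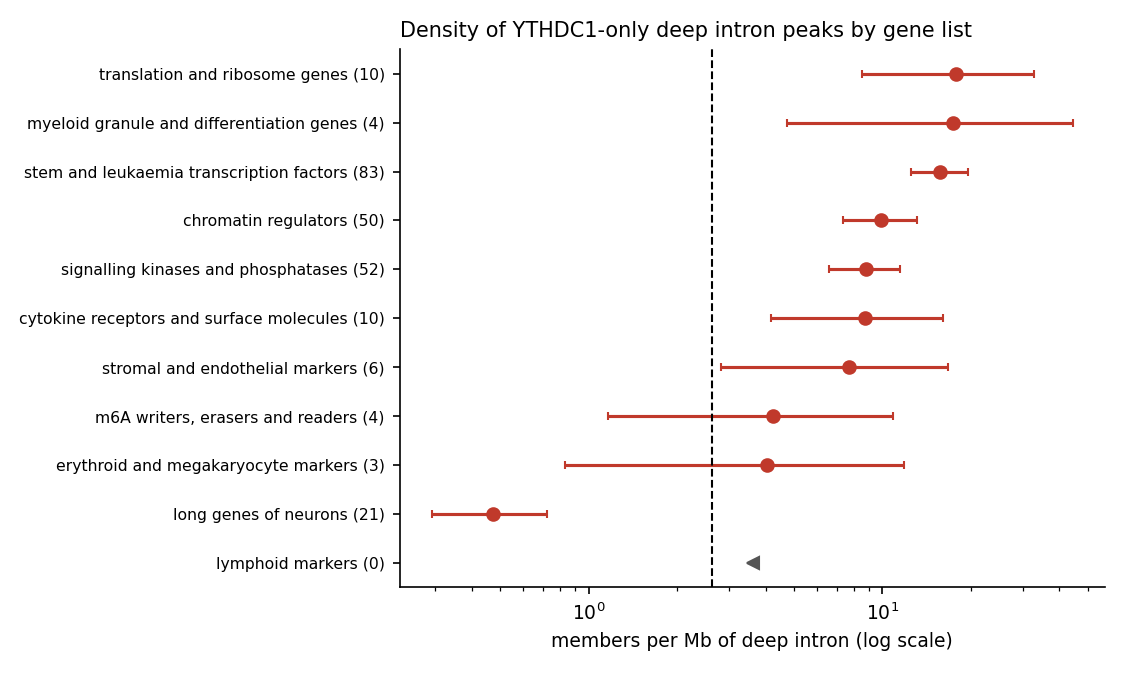
YTHDC1-only deep intron peaks per Mb of deep intron (horizontal axis, log scale) for the gene lists described, with the number of peaks in brackets; bars are exact Poisson 95% intervals, the dashed line is the density over all deep introns, 2.63 per Mb, and the triangle is the limit of 3.62 per Mb that a count of 0 allows for lymphoid markers. Transcription factors of stem cells and leukaemia stand at 15.7 and long genes of neurons at 0.471.

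Genes with a YTHDC1-only deep intron peak also carried exon peaks more often. These exon peaks come from the same peak lists as the members. A YTHDC1 peak that overlapped any IGF2BP2 or YTHDF2 peak, exon peaks included, was not a member. The exon shares are therefore a description and not independent evidence. An exon summit of YTHDC1 lay in 38.6% (36.1 to 41.0) of the 1564 host genes and in 12.1% (11.6 to 12.6) of the 17468 genes without such a peak. For IGF2BP2 the shares were 32.9% (30.6 to 35.3) and 8.68% (8.27 to 9.11), and for YTHDF2 20.1% (18.1 to 22.1) and 4.97% (4.65 to 5.30). Any of the lists gave an exon peak in 49.4% of host genes and 15.8% of the others. The order was the same within each class of deep intron length: 54.9% against 15.3% up to 30000 nt, 287 of 541 host genes against 19.6% up to 100000 nt, and 41.7% against 10.8% above that. In the remaining host genes the intron peak stood without an exon peak of any reader.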

How the data were processed

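The deposited peak lists of 3 immunoprecipitates, 1 library each, were used. The submitters' processing notes name GRCm38 and the tools HISAT2, Trim Galore and bcl2fastq 2.17; the peak caller is not given in the sources used here. For each peak the authors deposited a fold (a ratio of pileup to local background), the −log10 of a p-value and of a q-value, and a score. Pileup is a coverage signal at the summit, and length is in bp, per the file headers. These remain the authors' own values and were compared as descriptions only. The smallest −log10 q in the YTHDC1 list was 2.02. The background was computed as (pileup + 1) / fold − 1, on the assumption of a pseudocount of 1.

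Peaks were placed by summit in GENCODE M21 with Python 3.11.15, pandas 2.3.3 and SciPy 1.17.1; placement was tested on simulated positions. Overlap meant at least 1 bp. For 93 peaks with several host genes, named genes came before models without a name, then the gene with the nearest exon. Deep intron is intron sequence in no annotated exon and over 2000 nt from the 5' end. Shares have exact binomial (Clopper-Pearson) 95% intervals, and a count of 0 was taken to allow 3. No test across replicates was possible.

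The members and gene lists were chosen with earlier results of these data known. Genes were named by rule: the 15 with the highest fold at a −log10 q of at least 5, the 8 with most peaks (ties included), up to 4 per list by fold, and the peaks nearest each limit. Genes whose sequence is printed or that lie beside a miRNA, the cell type markers, Meis1 and the lone host genes of a list come on top of it. The motif GGAC was searched in RefSeq windows; the last 30 bases of 78.9% of 25174 windows with a matching symbol were found in a GENCODE transcript of the gene. Some genes that this rule names, and 1 gene list, are not reported here. A genome sequence was not used here, so motifs, repeats and mappability over all peaks were not analysed here.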

Additional observations from a re-analysis of the deposited data

How the results depend on the processing

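Of 48 alternative values, 33 stayed within their limits and 15 moved. The limits differed between measures, so the tally is no gauge of stability. Counts could change up to 1.5 times: host genes, 1564 as reported and 1089 at a −log10 q of at least 5, counted as within it. The chromatin regulator density without Arid1b, 6.79 against 9.90 per Mb, also counted as within its limit. A density over all deep introns of 2.49 against 2.63 per Mb counted as moved. With a −log10 q of at least 5 in all lists the number of YTHDC1-only deep intron peaks was 1556, the median fold 6.87 and the density 1.72 per Mb. With a YTHDC1 fold of at least 5 there were 1318 peaks in 929 genes, with a median fold of 7.37 and 1.45 per Mb. The fold setting keeps fewer and stronger peaks by construction. The −log10 q setting also drops peaks of the other readers, so it adds peaks that were shared: 1489 of the reported peaks reach it, fewer than its 1556. With no other reader's peak within 1000 bp the density was 2.49 per Mb, and with a limit of 5000 nt from the 5' end the first intron share was 24.3%. At a −log10 q of at least 5, host genes numbered 14 among signalling kinases and phosphatases, 1 among erythroid and megakaryocyte markers and 9 among long genes of neurons; the other lists stayed within 1.5 times. Densities per Mb under each setting and densities without the gene with the most peaks were added after seeing the data. Without that gene the erythroid and megakaryocyte list stood at 1.36 per Mb (without Itga2b), and the stromal list (without Pecam1) and the m6A list (without Fto) at 0. No paired analysis was possible because each protein has 1 library and no result comes from a test. The planned shares of GGAC, repeats and unique sequence, the 6-mers and the alternatives on mapping were not run, since they need a genome sequence. Depth is unknown, and 30.4% of peaks rest on a pileup of 3 or less.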

Other observations

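The density of YTHDC1-only deep intron peaks differed between chromosomes. It was highest on chromosome 11, at 4.30 per Mb of deep intron (3.74 to 4.92, 209 peaks), and on chromosome 17, at 4.17 (3.50 to 4.93, 136 peaks). Among autosomes the lowest value was 1.82 (1.45 to 2.24, 87 peaks), on chromosome 9. The X chromosome stood at 1.31 (0.981 to 1.71, 53 peaks). The Y chromosome had 5 peaks, all of them in Gm47283, whose deep introns cover 0.0292 Mb; 2 shared deep intron peaks lay in the same gene.

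The widest YTHDC1-only deep intron peak lay in Lmf1, a lipase maturation gene, and was 1507 bp wide with a fold of 19.6 and a pileup of 38. The Ankfy1 peak over a tandem array was 1071 bp wide. By comparison, 35.6% of the peaks (33.7 to 37.6) had the smallest width in the list, 100 bp. Of all YTHDC1-only deep intron peaks, 71 (2.98%, 2.34 to 3.75) lay inside the body of an annotated non-coding gene. The Dnah8 peak with a fold of 36.9 was among them. In 174 cases (7.31%, 6.29 to 8.43) the same intron also held a deep intron peak shared with another reader.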
